A study of Mus musculus with 8 samples.

Results

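Regions of open chromatin were examined at 8 genes that restrain or tune TGF-β signalling: Ski, Skil, Tgif1, Smurf1, Smurf2, Pmepa1, Ldlrad4 and Klf10. The genes were taken as a named set, and all peaks within 10 kb of their RefSeq gene bodies (GRCm38/mm10) were collected, 944 of the 835203 peaks deposited for 8 libraries. Merging peaks that overlapped by at least 1 bp left 187 regions at the 8 genes, out of 175276 in the genome. Because deposited lists differed in length, a region is called listed in a library below when it holds one of that library's 65811 peaks of highest −log10 p, the length of the shortest list. By this measure 109 regions at the 8 genes were listed at least once, out of 95899 in all, and the rank of a region is the place of its best peak in that list, with 1 the strongest.

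TGF-β binds a pair of receptor kinases at the cell surface, which phosphorylate Smad2 and Smad3. These join Smad4, enter the nucleus and act on genes with partner factors, and in CD4 T cells they help to induce Foxp3 and so the regulatory fate. Many genes that the pathway acts through or induces feed back on it: Ski and Skil (SnoN) encode corepressors that bind Smads, Tgif1 a homeodomain corepressor of Smad2, Smurf1 and Smurf2 ubiquitin ligases that act on receptors and Smads, and Pmepa1 and its relative Ldlrad4 membrane proteins that hold receptor-activated Smads away from the receptor. Klf10 encodes a zinc-finger factor induced early by TGF-β, which takes part in Foxp3 induction in mouse CD4 T cells.

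The material was naive CD4+ T cells sorted from mouse spleen, activated with antibodies to CD3 (0.25 µg/mL) and CD28 (1 µg/mL) with 20 ng/mL TGF-β in every group, and harvested after 48 h. ATAC-seq, which cuts and tags open DNA with a transposase, used 90000 cells per sample. The 4 groups, of 2 libraries each, were Tet1/3 cDKO (conditional double knockout) with 100 U of IL-2, Tet1/3 cDKO without IL-2, control with 100 U of IL-2, and control without IL-2. Tet1 and Tet3 encode enzymes that oxidise methylated cytosine. The sources used here do not give the driver of the conditional deletion, the deleted parts of both genes, or the strain, age and number of mice. The design text calls the replicates biological, but nothing ties them to separate animals, so p-values cover the spread between libraries alone, which may be technical. Where 4 values of a genotype are listed, those with IL-2 come first, and where 4 values of an IL-2 condition are listed, those of cDKO come first.

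The deposited lists held 65811 to 145979 peaks. Read depth is not given, and only the number and rank of peaks describe it. At 6 T cell marker genes 42 to 47 regions were listed in cDKO libraries and 41 to 48 in control libraries, or 13.8 to 15.4 and 13.4 to 15.7 per 100 kb. Marker genes of B cells (4.43 to 5.11 in cDKO, 4.09 to 4.77 in control), CD8 and NK cells (5.93, and 5.08 to 5.93), myeloid cells (5.74 to 8.13, and 5.26 to 7.18) and erythroid cells (6.76 to 8.46, and 7.61 to 8.46) held fewer per 100 kb. The median over protein-coding genes with a listed region was 6.02. Erythroid markers lay above it and myeloid markers on both sides of it, so these counts do not show such genes as closed. Ncr1, an NK cell receptor gene, held none in any library. Open chromatin at a gene does not measure its RNA, and fewer open cells cannot be told apart from less open DNA per cell.

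Promoter sequences are shown for 3 of the genes because they sit beside or under the regions described next. RefSeq promoter windows (GRCm38.p6, 250 bases before to 50 bases after a start) were held by the table used here for Ski, Smurf1, Smurf2 and Tgif1, all on the minus strand. CG pairs, the main sites of cytosine methylation in mammals, are in capitals.
Ski, chr4:155222486-155222785: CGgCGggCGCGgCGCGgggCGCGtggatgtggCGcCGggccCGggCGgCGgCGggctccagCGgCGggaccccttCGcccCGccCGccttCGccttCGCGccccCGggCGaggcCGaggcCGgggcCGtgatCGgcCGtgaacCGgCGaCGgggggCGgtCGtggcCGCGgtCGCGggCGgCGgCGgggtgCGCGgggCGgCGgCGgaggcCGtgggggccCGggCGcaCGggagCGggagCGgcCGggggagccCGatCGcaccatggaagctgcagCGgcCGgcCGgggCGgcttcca
Smurf2, chr11:106920666-106920965: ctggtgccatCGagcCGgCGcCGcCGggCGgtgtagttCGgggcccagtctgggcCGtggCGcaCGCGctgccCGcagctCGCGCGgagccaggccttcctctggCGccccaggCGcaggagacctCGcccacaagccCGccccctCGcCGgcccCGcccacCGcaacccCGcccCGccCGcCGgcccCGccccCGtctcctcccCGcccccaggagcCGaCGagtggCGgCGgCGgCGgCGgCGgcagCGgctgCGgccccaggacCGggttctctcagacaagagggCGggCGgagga
Tgif1, chr17:70851685-70851984: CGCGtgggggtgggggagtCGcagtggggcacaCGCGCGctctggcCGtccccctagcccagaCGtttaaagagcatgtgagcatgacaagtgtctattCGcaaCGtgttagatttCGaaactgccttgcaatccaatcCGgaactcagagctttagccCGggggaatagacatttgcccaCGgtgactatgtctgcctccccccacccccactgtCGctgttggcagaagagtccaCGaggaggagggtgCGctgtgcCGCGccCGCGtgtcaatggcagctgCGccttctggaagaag
Tgif1, chr17:70851161-70851460: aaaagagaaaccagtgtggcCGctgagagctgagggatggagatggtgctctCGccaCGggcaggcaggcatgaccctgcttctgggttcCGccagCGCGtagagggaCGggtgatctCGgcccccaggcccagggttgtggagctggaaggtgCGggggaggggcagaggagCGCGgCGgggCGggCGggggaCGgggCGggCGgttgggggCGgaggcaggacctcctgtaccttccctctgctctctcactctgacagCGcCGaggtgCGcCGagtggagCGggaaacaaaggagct
Tgif1, chr17:70846728-70847027: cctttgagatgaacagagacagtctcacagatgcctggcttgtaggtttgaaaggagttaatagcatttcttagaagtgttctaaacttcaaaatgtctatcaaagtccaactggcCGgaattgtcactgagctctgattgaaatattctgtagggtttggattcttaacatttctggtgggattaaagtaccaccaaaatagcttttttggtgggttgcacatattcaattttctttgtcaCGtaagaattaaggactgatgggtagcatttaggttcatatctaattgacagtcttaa
The Ski window held 59 CG pairs, a number reached by 0.1% of the 32851 windows in the table, whose median was 7. The Smurf2 window held 43 and that of Smurf1 (chr5:144965781-144966080) held 49. The 5 Tgif1 windows held 20, 22, 23, 15 and 2, in order from the higher coordinate. Each window was searched on both strands for CAGAC, a short sequence that Smads bind, which 49.6% of all windows held. It occurred 2 times in the Smurf1 and Smurf2 windows, and 1, 2, 0, 1 and 0 times in those of Tgif1. Ski had none. GTCTAGAC (in 0.213% of windows) and the AP-1 motif TGANTCA (7.81%) were in none of the 8 windows. The STAT motif TTCNNNGAA (8.3%) was in the last Tgif1 window alone.

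Each of the 8 genes carried an open region at an end of its gene body in every library. Of the 15 listed regions within 1 kb of a gene end, 9 were listed in all 8 libraries, against 39 of the 94 others. Together 48 of 109 regions (44%) were listed in all 8 libraries, close to the 42.4% of all regions. The median rank of these 48 was 16342, against 21320 over all 40694 such regions, so the shared regions at these genes stood somewhat higher in the lists. Exons, introns were not analysed here, since the gene table gives gene bodies only. The 8 genes lie on 8 different chromosomes, and none lies on chromosome 6 or 10, which carry Tet3 and Tet1.

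The corepressor genes differed in how many listed regions they held. Ski (chromosome 4, 155154075 to 155222535) had 12 listed regions, 8 of them in all 8 libraries. Its strongest (155162176 to 155163597, inside the gene) ranked 2541 to 8668. The region just beyond its promoter window (155222845 to 155223748) ranked 5800, 7899, 8059 and 9043 in cDKO and 4285, 2053, 9480 and 3817 in control libraries. The printed Ski promoter window overlapped a listed region in 1 library only, control with IL-2 replicate 2, at rank 61151. Skil (chromosome 3, 31095058 to 31122923) had 6 listed regions, and its strongest lay across the lower-coordinate end (31093702 to 31095987), with ranks of 4667 to 14345. Tgif1 (chromosome 17, 70844205 to 70853532) is short, at 9.33 kb, and had 8 listed regions. A library listed on average 16.2 per 100 kb of its window (gene body and 10 kb on both sides), against a median of 6.02 over 17547 protein-coding genes. Those genes were not matched to it for length.

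The Tgif1 promoter windows were not open alike. The window at 70851685 lay in a region (70851672 to 70853186) listed in all 8 libraries, ranked 16931 to 35255. The next window, at 70851161, lay in a region (70851025 to 70851456) listed in 5 libraries. It ranked 49402 and 48137 in cDKO with IL-2 and was not listed in cDKO without IL-2, whose full deposited lists held it at places 68560 and 76492. In control it ranked 57140 and 47582 with IL-2, and 59567 without IL-2 in replicate 2 alone. The window at 70849741 was in a region listed in 7 libraries, that at 70853483 in a region listed in 1, and the CG-poor window at 70846728 in none.

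Of the ubiquitin ligase genes, Smurf1 (chromosome 5, 144876495 to 144965899) had 18 listed regions but only 6 in all 8 libraries, while 6 were listed in a single library. Its strongest region (144919305 to 144920212) ranked 5244 to 21337, and its promoter region (144964615 to 144966399) 11771 to 25820. Smurf2 (chromosome 11, 106820061 to 106920747) was sparse, with 5 listed regions for a gene of 101 kb. A library listed on average 2.69 per 100 kb of its window, under the lower quartile of 3.38 over all genes. Its strongest was the promoter region (106919633 to 106921245). That region ranked 7725, 5907, 6783 and 10914 in cDKO and 12363, 9072, 9777 and 12648 in control libraries, and the groups overlapped.

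The membrane protein genes held the strongest regions. Pmepa1 (chromosome 2, 173224458 to 173276731) had 11 listed regions, and one inside the gene (173263475 to 173264490) ranked 2209 to 4945 in all 8 libraries. The region at its higher-coordinate end (173274467 to 173276837) ranked 9239 to 22142. Ldlrad4 (chromosome 18, 67932274 to 68260550, 328 kb) had 44 listed regions, 18 of them in all 8 libraries. The strongest (68156976 to 68158008) ranked 566, 482, 1000 and 1714 in cDKO and 496, 2875, 637 and 593 in control libraries. The region at its lower-coordinate end (67932375 to 67934246) ranked 5456 to 11926. Klf10 (chromosome 15, 38291464 to 38300711) had 5 listed regions, of which 4 were in all 8 libraries, and the one across its higher-coordinate end (38300512 to 38301562) ranked 3549 to 13986. A neighbour just inside that end (38298950 to 38300280) ranked 7756 to 22336. The other listed regions near gene ends were weaker, at ranks of 34476 to 65110, and were listed in 7 libraries at Smurf1 and Ldlrad4 and in 2 at Pmepa1 and Klf10.

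**Figure D1:**
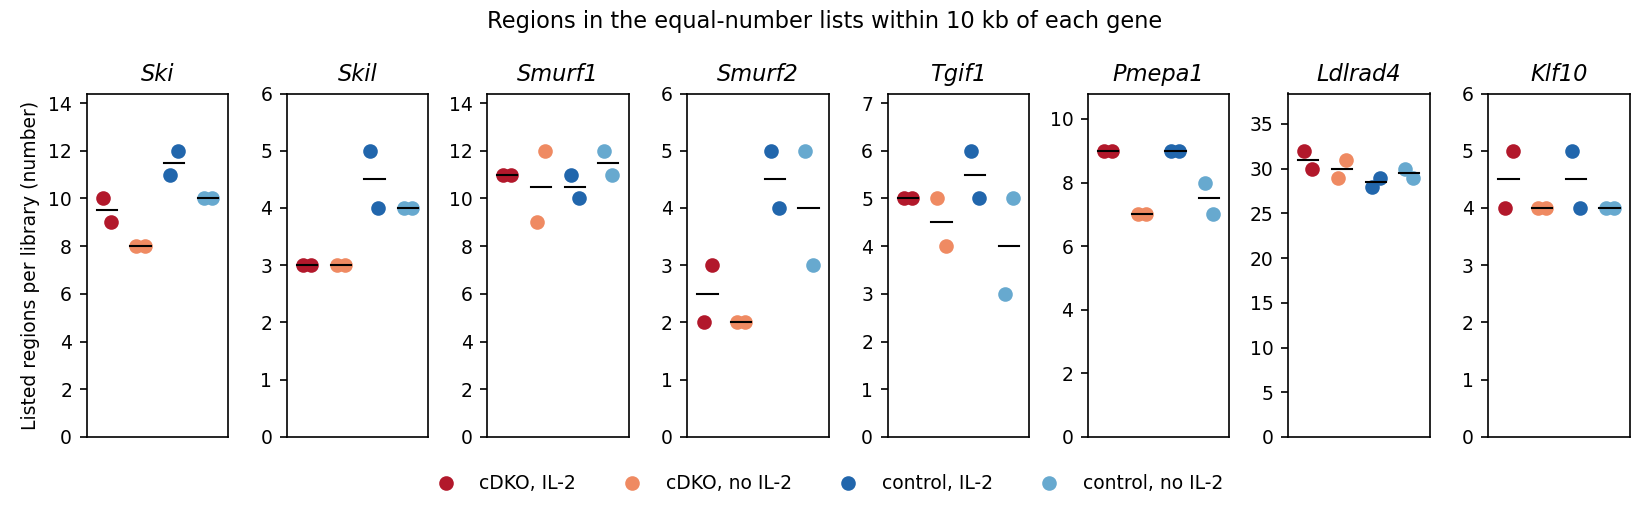
Number of listed regions within 10 kb of each gene in every library, with 2 libraries per group as points and the group mean as a line. Skil had 3 regions in every cDKO library and 4 or 5 in control libraries, and Pmepa1 had 9 in every library with IL-2 and 7 or 8 without it.

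A few weak regions at Ski, Smurf2 and Ldlrad4 were listed in control and not in Tet1/3 cDKO libraries. A region was called lower in cDKO when all 4 control libraries and no cDKO library listed it, and higher in the opposite case. No p-value attaches to such a call. 4 regions were lower in cDKO, in Ski, Smurf2 and Ldlrad4 (2), and 1 was higher, in Ldlrad4. That is 3.67% lower and 0.917% higher of 109 regions, beside 1.12% lower and 0.706% higher of all 95899. Among regions listed in exactly 4 libraries, which alone can be called, 4 of 8 were lower and 1 higher, beside 17.4% lower and 11% higher over the genome. The higher share lay near the background, and the lower share above it, on 4 regions. In the full deposited lists, 1 region remained lower, in Smurf2, and none was higher. The shares of all regions called there were not computed.

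The region lower in Ski (155195248 to 155195572) ranked 50789, 43985, 43744 and 43766 in the control libraries. The full deposited lists held it in 1 cDKO library, without IL-2 replicate 1, at place 69111. The region in Smurf2 (106877605 to 106877855) ranked 41560 and 38371 in control with IL-2 and 61903 and 52752 in control without IL-2. No cDKO list of any length held it. This was so for none of the other lower regions, each of which had a weaker peak in 1 or 2 cDKO lists.

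In Ldlrad4, which encodes the Smad-binding relative of Pmepa1, calls went both ways. The region at 68052839 to 68053097 was not listed in cDKO and ranked 39287, 48550, 38731 and 57736 in control. That at 68234575 to 68234845 was likewise absent in cDKO and ranked 29628, 39216, 43383 and 60420 in control. The opposite held at 67985590 to 67986279, which ranked 54417 and 58015 in cDKO with IL-2 and 40991 and 51531 in cDKO without IL-2, and was not listed in control. All 3 lie inside the gene, and 3 control libraries held the last one lower in their deposited lists, at places 72955 to 88228.

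**Figure D2:**
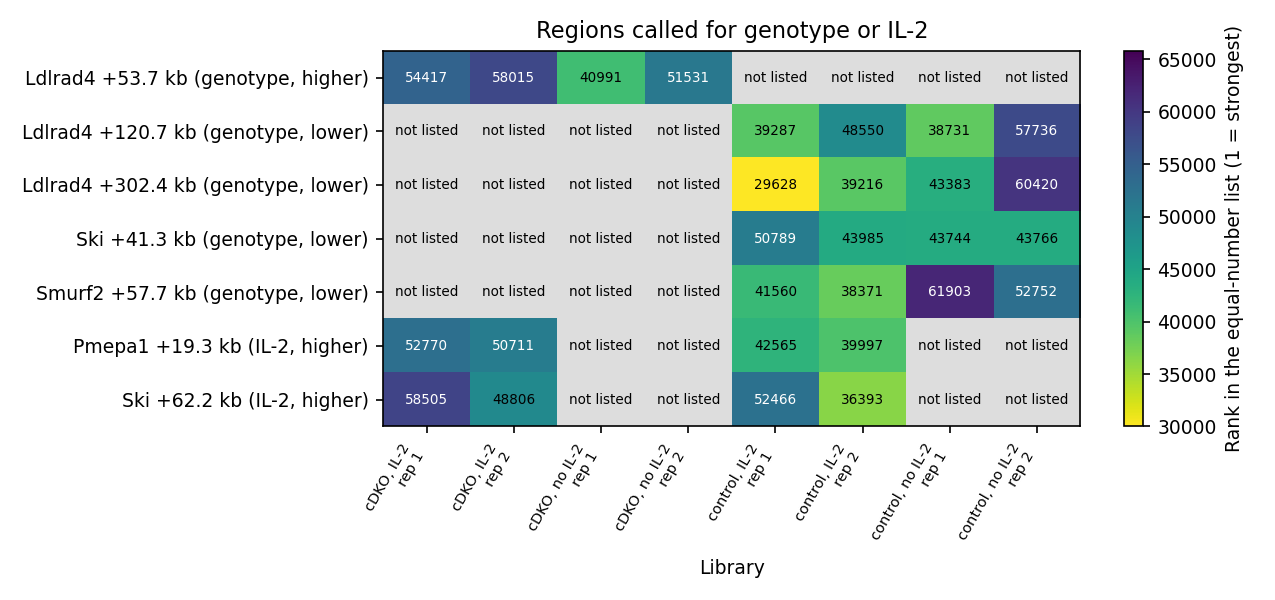
Rank of the 7 regions called for genotype or IL-2 in each of 8 libraries. Rows give the gene and the distance of the region from the lower-coordinate end of its body, colour and number the rank, and grey a region that was not listed. All listed ranks lie between 29628 and 61903, in the weaker part of the lists.

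A strong region inside Ldlrad4 (67945319 to 67946087), singled out after its values were seen, stood lower in cDKO without IL-2. It ranked 7459 and 7726 there, against 144 and 642 in control without IL-2, a median log2 rank difference of 4.64. With IL-2 it ranked 2984 and 808 in cDKO and 100 and 1773 in control, with a difference of 1.88, and the groups overlapped. Without IL-2, 9 of 48 regions at the 8 genes were weaker in cDKO with ranks that did not overlap (18.8%), beside 21.6% of all regions, a share near the background. The values behind these ranks lay closer together. The authors' fold over background was 19.7 and 18.2 in cDKO without IL-2, and 22.2 and 21.4 in control without IL-2. Their −log10 p was 56.6 and 57.2 in cDKO and 93.1 and 85.1 in control. Ranked by fold instead, it stood at 329 and 242 in cDKO with IL-2 and 849 and 1441 in cDKO without, against 85 and 186 in control with IL-2 and 191 and 116 in control without, where all 4 cDKO libraries lay below all 4 controls.

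**Figure D3:**
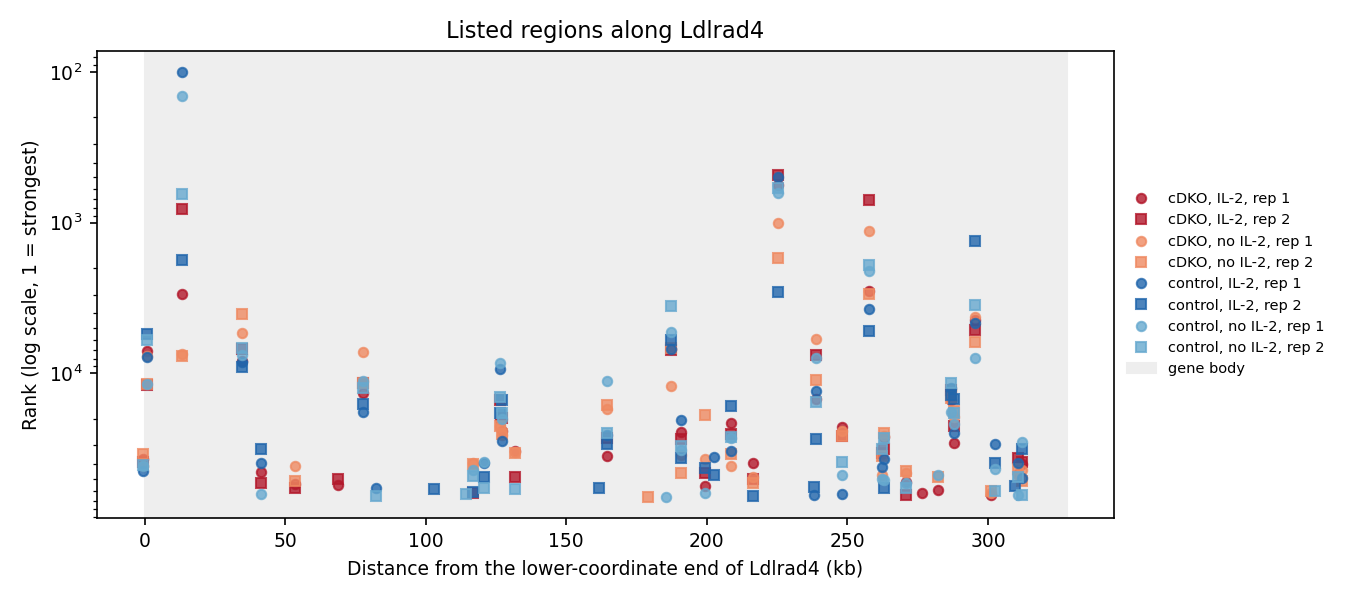
Rank, on a log scale with the strongest at the top, of every listed region along Ldlrad4 in each library, against distance from the lower-coordinate end of the gene. Near 13.4 kb the points spread from rank 100 in a control library to 7726 in a cDKO library, while near 225.2 kb all 8 lie between 482 and 2875.

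Of the regions listed in all 8 libraries, 1 near Klf10 and 1 in Skil differed in rank between the genotypes. A rank shift was counted where the ranks of the 4 cDKO libraries and the 4 control libraries did not overlap. 1 of 48 regions was stronger in cDKO (2.08%, beside 6.15% of all regions) and 1 weaker (2.08%, beside 5.72%). Both shares lay below the background, but each rests on a single region. The stronger one lay outside Klf10 (38282538 to 38283209), with ranks of 23942, 27995, 30266 and 19246 in cDKO and 57743, 43442, 31205 and 37983 in control. Its median log2 rank difference, cDKO minus control, was -0.65, where a negative value means stronger in cDKO. The weaker one lay inside Skil (31109009 to 31109842), with 33971, 44314, 41385 and 38043 in cDKO and 30068, 27007, 19245 and 22513 in control, a difference of 0.69.

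**Figure D4:**
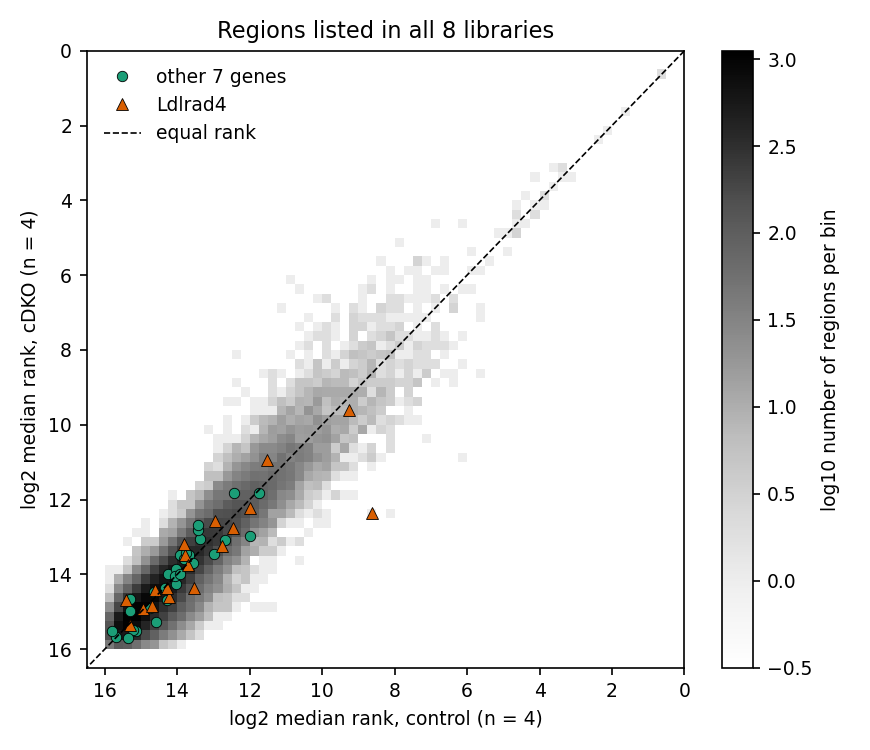
Median rank over 4 cDKO libraries against that over 4 control libraries (log2 scale, strongest at upper right) for regions listed in all 8 libraries, with 48 regions at the 8 genes as symbols over the density of all 40694. Most symbols lie near the dashed line of equal rank. One Ldlrad4 region stands off it, with median ranks of 5222 in cDKO and 393 in control.

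Skil had fewer listed regions in cDKO, without overlap, though not past the adjusted threshold. Skil had 3 regions in each of the 4 cDKO libraries, against 5, 4, 4 and 4 in control (3 ± 0 and 4.25 ± 0.5, SD, n = 4 each). The exact 2-sided permutation p was 0.0286, the smallest that 70 relabellings allow, and the adjusted p over 17547 genes was 0.898. The difference, -1.25 regions, was -0.50 in the full deposited lists or in the gene body alone. Smurf2 had 2, 3, 2 and 2 in cDKO and 5, 4, 5 and 3 in control, and Ski 10, 9, 8 and 8 in cDKO and 11, 12, 10 and 10 in control (exact permutation p = 0.0571 and 0.0857, adjusted p = 1 for both), with 1 value shared between the groups in each. Ldlrad4 had 32, 30, 29 and 31 in cDKO and 28, 29, 30 and 29 in control. So 1 of 8 genes was lower without overlap and none higher, beside 1.64% and 1.54% of all genes. By this test no gene of the 17547 passed an adjusted p of 0.05, and 558 had an unadjusted p under 0.05. With 70 relabellings a gene could pass only if most genes reached the smallest p, so the test could hardly call single genes.

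With IL-2, a region each in Ski and Pmepa1 was listed that was not listed without it. IL-2 is a growth factor of activated and regulatory T cells that signals through STAT5. All 4 libraries with IL-2 and none of the 4 without it listed a region inside Ski (155216191 to 155216442) and one inside Pmepa1 (173243654 to 173243916). That is 2 of 109 regions (1.83%), beside 0.348% of all regions, and 2 of the 8 listed in exactly 4 libraries, beside 5.42%. No region was lower with IL-2, beside 0.229% of all regions and 3.57% of those listed in exactly 4 libraries.

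The Ski region ranked 58505 and 48806 in cDKO with IL-2 and 52466 and 36393 in control with IL-2. In the full deposited lists it was also held in 3 of the 4 libraries without IL-2, at places 69538 to 111882. The Pmepa1 region ranked 52770 and 50711 in cDKO with IL-2 and 42565 and 39997 in control with IL-2. Without IL-2 it was held by 1 deposited list, that of control replicate 1, at place 74593. Both calls were lost in the full deposited lists, which therefore called none for IL-2 at these genes.

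Pmepa1 also had more listed regions with IL-2. It had 9 in each of the 4 libraries with IL-2, against 7, 7, 8 and 7 without (9 ± 0 and 7.25 ± 0.5, SD, n = 4 each, exact 2-sided permutation p = 0.0286, adjusted p = 1). The difference of 1.75 regions was 0.25 in the full deposited lists and in lists of 32905 peaks, and 1.00 in the gene body alone. 1 of 8 genes was thus higher without overlap and none lower, beside 0.559% and 0.541% of all genes. No gene of the 17547 passed an adjusted p of 0.05 in this test, and 193 had an unadjusted p under 0.05.

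Rank shifts with IL-2 were few. 1 of 48 regions was stronger (2.08%, beside 2.77% of all regions) and 2 weaker (4.17%, beside 3.01%), shares near the background. Inside Smurf1, a region at 144907512 to 144908051 ranked 51939, 46653, 48909 and 51871 with IL-2 and 52509, 60094, 53061 and 58828 without, a median log2 rank difference of -0.15. Another at 144963509 to 144964263, near its promoter, ranked 22324, 22743, 24120 and 20874 with IL-2 and 15534, 19947, 20208 and 18234 without, a difference of 0.24. The region inside Ldlrad4 at 68096365 to 68096904 ranked 35212, 26818, 25485 and 29631 with IL-2 and 17266, 16328, 11304 and 25008 without, a difference of 0.75.

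Within each arm of 2 libraries per side, calls were more frequent everywhere. Without IL-2, 3 of 92 regions were higher in cDKO (3.26%, beside 4.42% of all regions) and 8 lower (8.7%, beside 4.81%). With IL-2, 6 of 99 were higher (6.06%, beside 4.05%) and 8 lower (8.08%, beside 4.46%). With IL-2 in cDKO cells, 7 of 87 were higher (8.05%, beside 3.3%) and none lower (beside 3.48%). With IL-2 in control cells, 5 of 99 were higher (5.05%, beside 2.71%) and 2 lower (2.02%, beside 2.84%). These comparisons share libraries with each other and with those above. In the full deposited lists the counts higher with IL-2 were 3 in cDKO and 0 in control, and those lower were 5 in each. Those lists differ in length, and the shares of all regions called in them were not computed.

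**Figure D5:**
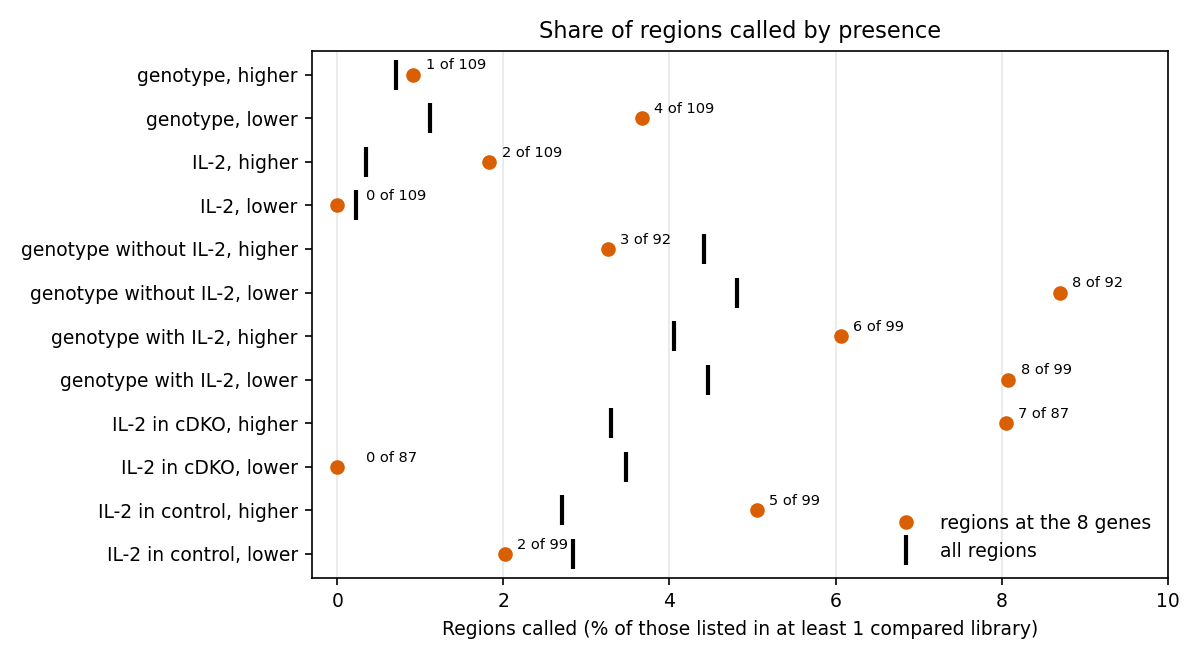
Share of listed regions called by presence in each comparison and direction, for regions at the 8 genes (points, with the number called of those tested) and for all regions (vertical marks). The share lower in cDKO was 8.7% without IL-2 and 8.08% with it at these genes, against 4.81% and 4.46% of all regions.

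A pair of regions inside Smurf1 was listed in every library except those of cDKO without IL-2. The one at 144935933 to 144936658 ranked 34415 and 36322 in cDKO with IL-2, 28479 and 15958 in control with IL-2, and 46878 and 32718 in control without IL-2. The one at 144898548 to 144899054 ranked 35223 and 25196 in cDKO with IL-2, 16920 and 18726 in control with IL-2, and 38997 and 64799 in control without IL-2. The deposited lists of cDKO without IL-2 held both at lower places, 65813 to 89564. They were called lower in cDKO without IL-2 and higher with IL-2 in cDKO.

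A region inside Smurf1 at 144937318 to 144937688 was higher in cDKO with IL-2, where it ranked 40877 and 38642, while control with IL-2 did not list it. Without IL-2 it ranked 28368 and 32991 in cDKO, and 58486 in control replicate 2 alone. Calls in single arms also lay in Ski, Skil, Tgif1, Smurf2, Pmepa1 and Ldlrad4, and 3 of those in Ldlrad4 are described next. The region at 68148360 to 68148995 ranked 48615 and 53250 in cDKO without IL-2 and was not listed in control without IL-2. The region at 68134553 to 68134808 ranked 35634 and 47530 in control with IL-2 and was listed in no other library. The region at 68203080 to 68203345 was lower with IL-2 in control cells, which did not list it with IL-2 and ranked it 53690 and 58068 without. Both cDKO libraries with IL-2 listed it, at rank 64627 or better.

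For each factor, 1 region at these genes went in opposite directions in the 2 arms of the other factor. For genotype it was 1 of 109 (0.917%), outside Tgif1, beside 1.98% of all regions. For IL-2 it was 1 of 109 (0.917%), inside Pmepa1, beside 2.44%. Single regions cannot set these shares apart from the background.

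The rest of the TGF-β pathway was read from a list of 59 other genes, all matched, with 488 listed regions. Of these 6 (1.23%) were lower in cDKO, beside 1.12% of all regions, and none was higher, beside 0.706%. They were 3 of 106 at receptor genes, 1 of 67 at Smad genes, 1 of 79 at ligand and activation genes, 1 of 187 at cofactor genes and 0 of 49 at target genes. A region at Smad3, which carries the receptor signal to the nucleus (chromosome 9, 63711891 to 63712286), was listed in all 4 control libraries at rank 46535 or better. Others lay at Nedd4l, a ubiquitin ligase gene (chromosome 18, 64986647 to 64986975), at Tgfb1 (chromosome 7, 25711738 to 25712173) and at Tgfbr2, the type II receptor gene, with 2 regions (chromosome 9, 116101738 to 116102184 and 116125268 to 116125839). With IL-2, 2 regions (0.41%) were higher, at Itgb8, which encodes an integrin chain that activates latent TGF-β, and at Zeb2, and 1 (0.205%) was lower, at Itgae, which encodes CD103. The shares of all regions were 0.348% higher and 0.229% lower. For genotype, 20 of 220 regions were stronger by rank (9.09%, beside 6.15% of all regions) and 19 weaker (8.64%, beside 5.72%). The groups were unlike, with 2 stronger and 7 weaker of 27 at Smad genes, and 3 and 8 of 85 at cofactor genes. Receptor genes had 7 and 2 of 52, target genes 5 and 2 of 23, and ligand and activation genes 3 and 0 of 33. These splits were not tested. For IL-2, 6 were stronger (2.73%, beside 2.77%) and 4 weaker (1.82%, beside 3.01%).

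Of 23 protein-coding genes with at least as many listed regions as Ldlrad4, the one whose count followed it most closely over the 8 libraries was Hivep3 (Pearson's r = 0.495), then Rad51b (0.274) and Wwox (0.216). These are weak correlations of counts that share the same libraries.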

How the data were processed

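ATAC-seq was done on 8 libraries in 4 groups of 2, named from their titles. Each library has its own peak list from the authors. Tools per the submitters' processing notes, with no role or order, were MACS2 2.2.7.1, HOMER 4.11.1, Bowtie2 2.4.1, DiffBind 2.10.0, Trimmomatic 0.39, ChIPseeker 1.18.0, SAMtools 1.3.1 and Picard, on GRCm38 (mm10). Settings, read shifting and duplicate handling were not given there, and each could change which weak peaks were called. Each deposited peak carries a fold over background (a ratio), a −log10 p-value and a −log10 q-value, and the largest q-value was 0.05 to rounding. The deposited score column was not used, and the deposited summit offset was not used.

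Peaks overlapping by at least 1 bp were merged over all lists, and each list was reduced to its 65811 peaks of highest −log10 p. Presence calls, rank shifts and exact permutation tests of listed regions per gene (70 relabellings, Benjamini-Hochberg over all protein-coding genes with a listed region) were computed genome-wide with Python 3.11.15, numpy 2.4.6 and pandas 2.3.3, and tested on simulated lists. Named regions were the best region of each gene, those at gene ends, all presence calls of 4 against 4 libraries, up to 3 rank shifts per direction, and up to 2 presence calls per direction of 2 against 2. The genes and lists were chosen with earlier results of these data known. Alternatives were deposited lists, lists of 32905 peaks, gene bodies alone, ranking by fold, and q of at most 0.001. Further ones were peaks at least 50% as wide as their merged region, leaving out each library, and a replicate block. No genome sequence was used, and promoter sequences came from RefSeq (GRCm38.p6).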

Additional observations from a re-analysis of the deposited data

Results flagged for a closer look

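A region 8.5 kb outside Tgif1 (chromosome 17, 70835080 to 70835691) moved in opposite directions with genotype in the 2 IL-2 arms. With IL-2 it ranked 25909 and 32485 in cDKO (median 29197) and 38386 and 38476 in control, so both cDKO libraries were stronger. Without IL-2 it ranked 62489 and 59359 in cDKO and 40363 and 36582 in control, so both were weaker. The difference between the arms was not tested, with 2 libraries per group.

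A region inside Pmepa1 (chromosome 2, 173246822 to 173247229) moved in opposite directions with IL-2 in the 2 genotypes. In cDKO it ranked 24673 and 28907 with IL-2 (median 26790) and 29949 and 29247 without, slightly stronger with IL-2. In control it was not listed with IL-2 and ranked 59948 and 33704 without. The deposited lists of control with IL-2 held it in replicate 1 alone, at place 75970. This difference was not tested either.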

How the results depend on the processing

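Each pair below gives regions at the 8 genes higher, then lower. Shares of all regions were computed for the main setting alone, so the other counts have no background beside them. By presence the main pairs were 1 and 4 for genotype, 2 and 0 for IL-2, 3 and 8 for genotype without IL-2, 6 and 8 for genotype with IL-2, 7 and 0 for IL-2 in cDKO, and 5 and 2 for IL-2 in control. By rank they were 1 and 1 for genotype and 1 and 2 for IL-2. In the same order, deposited lists gave 0 and 1, 0 and 0, 2 and 8, 2 and 4, 3 and 5, and 0 and 5 by presence, and 2 and 1, and 0 and 3 by rank. Deposited lists at q of at most 0.001 gave 1 and 1, 0 and 0, 1 and 8, 2 and 4, 2 and 3, and 0 and 5, then 1 and 2, and 0 and 3. Lists of 32905 peaks gave 2 and 1, 0 and 0, 2 and 3, 5 and 2, 3 and 1, and 1 and 0, then 0 and 0, and 0 and 1. Ranking by fold gave 3 and 2, 1 and 0, 4 and 5, 6 and 6, 4 and 0, and 5 and 2, then 2 and 2, and 0 and 1. In another setting a peak counted only if it was at least 50% as wide as its merged region. It gave 1 and 4, 2 and 1, 3 and 9, 5 and 8, 8 and 1, and 5 and 5, then 0 and 0, and 0 and 1. Gene bodies alone left out the Klf10 region and gave 0 rank shifts higher for genotype.

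The 7 regions called by presence kept their call in all 8 fits that left out 1 library. Each kept it in 2 to 4 of the 6 other settings, but some of those outcomes were fixed in advance. All 7 regions lie inside their genes, so gene bodies alone kept every call by construction. Lists cut shorter than the main ones left out nearly all ranks of these regions, so every call had to be lost there. Neither of these settings tests the calls. Leaving out a library eases these rules by construction. The ranges were 1 to 3 and 4 to 6 for genotype, 2 to 3 and 0 to 0 for IL-2, 3 to 8 and 8 to 16 for genotype without IL-2, 6 to 11 and 8 to 13 for genotype with IL-2, 7 to 11 and 0 to 5 for IL-2 in cDKO, and 5 to 12 and 2 to 7 for IL-2 in control. By rank they were 1 to 3 and 1 to 5 for genotype, and 1 to 4 and 2 to 5 for IL-2. For genotype, the number higher was 2 without replicate 2 of cDKO with IL-2 or of control with IL-2, and 3 when control without IL-2 lacked its replicate 2. The number lower by rank was 5 without replicate 1 of control without IL-2, and 3 without replicate 2 of cDKO with IL-2 or of control with IL-2. For genotype without IL-2, omitting cDKO replicate 1 gave 8 higher, and omitting control replicate 2 gave 7 higher and 16 lower. For genotype with IL-2, omitting control replicate 1 gave 11 higher and 13 lower, and omitting control replicate 2 gave 13 lower. For IL-2 in cDKO, 11 were higher on omitting replicate 2 with IL-2, and 5 lower on omitting replicate 1 without it. For IL-2 in control, omitting replicate 1 with IL-2 gave 12 higher and 7 lower. For IL-2 by rank, omitting control replicate 2 without IL-2 gave 4 higher and 4 lower.

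The replicate numbers are not known to pair the libraries. Differences between replicates correlated between groups from -0.19 to 0.38 over 40694 regions. Under the replicate block, regions that moved one way in all 4 same-numbered pairs were counted, a looser rule by construction. Rank shifts were then 7 higher and 2 lower for genotype and 6 and 6 for IL-2. The shares of all regions under this rule were not computed. Permuting within replicate numbers (36 relabellings) gave an exact p of 0.0556, the smallest possible, for Skil with genotype and Pmepa1 with IL-2 (adjusted p = 1 for both). The gene-level test called no gene in any setting, with adjusted p-values at the 8 genes of 0.657 to 1. The Ski difference in listed regions for genotype reversed to 0.25 with lists of 32905 peaks. The causes of these changes were not tested. Peak lists without read counts limit all comparisons to the order of peaks.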
